A study of Bos taurus with 8 samples.

Results

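The genes of respiratory complex I whose symbols begin with NDUF were compared between large luteal cells (LLC) and small luteal cells (SLC) of the bovine corpus luteum (CL). Members were all transcript clusters of the array whose only symbol matched this name, with 1 cluster per symbol, which gave 43 genes among 24415 clusters. They fell into 13 NDUFA, 10 NDUFB, 2 NDUFC, 7 NDUFS and 3 NDUFV genes and 8 NDUFAF genes of assembly factors. The NDUFA genes include NDUFA4 and NDUFA4L2, which share the name but are not counted among the structural subunits. Of the 43 members, 27 (62.8%) had a higher signal in LLC, 2 (4.65%) had a higher signal in SLC and 14 did not pass the test. Of all clusters, 9.64% were called higher in LLC and 10.2% higher in SLC. The median difference was 0.48 on the log2 scale, beside 0.02 over all clusters.

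Both cell types came from mid-cycle CL of lactating Holstein cows whose estrus had been synchronized with cloprostenol, a prostaglandin F2alpha analog. The CL were digested with collagenase, enriched for luteal cells on a Percoll gradient, stained with a Hoechst DNA dye and sorted by FACS into SLC and LLC. RNA of 4 SLC and 4 LLC samples was hybridised to Affymetrix Bovine Gene 1.0 ST arrays, 1 array for each sample, and each array gives a log2 signal for each cluster. The labels call the samples biological replicates 1 to 4 of each cell type. A member counted as called when its Benjamini-Hochberg adjusted p in limma, over all 24415 clusters, was under 0.05.

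Complex I, the NADH:ubiquinone oxidoreductase, is the first enzyme of the mitochondrial respiratory chain. It takes electrons from NADH, passes them over flavin and iron-sulfur clusters to ubiquinone, and pumps protons across the inner membrane. Its matrix arm holds the N module, which oxidises NADH, and the Q module, which reduces ubiquinone. Its membrane arm holds the proton-pumping modules, named here ND1, ND2, ND4 and ND5 after their mitochondrially encoded subunits. Luteal cells depend on mitochondria for progesterone synthesis, since cholesterol is cut to pregnenolone at the inner membrane.

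The sorted samples carried the markers of their labels. The large luteal markers OXT, PTGFR, NR5A2 and CYP19A1 were called higher in LLC in 4 of 4 cases. In SLC, 2 of 3 small luteal markers (INSL3 and NR2F2, with LHCGR not called) were called higher. Of 5 luteal steroidogenic markers, CYP11A1 (0.45) and FDX1 (0.81) were called higher in LLC. HSD3B1 (0.27), SCARB1 (0.03) and NR5A1 (-0.54) were not called. Markers of other cells also moved with the comparison. Of the macrophage markers 9 of 9 were higher in SLC, of the endothelial markers 8 of 10, of the fibroblast markers 6 of 6, of the pericyte and smooth muscle markers 3 of 7 and of the lymphatic markers 1 of 5. No member of these lists was called higher in LLC, and no T cell or erythrocyte marker was called. The log2 of the summed linear signal of the macrophage markers ranged from 8.80 to 9.40 in SLC and from 6.62 to 7.17 in LLC. It ranged from 10.05 to 10.76 and from 8.07 to 9.68 for endothelial markers, from 12.86 to 13.17 and from 11.10 to 12.04 for fibroblast markers, from 9.15 to 10.09 and from 7.37 to 9.11 for pericyte markers, and from 9.73 to 10.69 and from 9.34 to 10.45 for lymphatic markers. Olfactory receptors, taken as background, had a 95th percentile of 2.28, and 4 of 5 T cell markers (all but CD3E) and 3 of 3 erythrocyte markers lay below it. The part of other cells in the complex I differences was not tested. In such sorted samples, fewer cells of a type and less RNA per cell cannot be told apart.

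The calls of complex I genes lay mostly on the LLC side. The 27 members higher in LLC made up 62.8% of the 43, beside 9.64% of all clusters called higher in LLC. The 2 members higher in SLC made up 4.65%, beside 10.2% of all clusters. The members are brighter than most clusters, and bright clusters were called more often. Among the 3844 clusters at least as bright as the lower quartile of the members, 19.8% were called higher in LLC and 22.4% higher in SLC. In 29 members all LLC arrays lay above all SLC arrays, which 11.2% of all clusters did, and in 2 members all SLC arrays lay above all LLC arrays, which 11.3% of all clusters did. The other 12 members overlapped. The median difference over all clusters was 0.02. The differences were mostly small in size. The filter stated by the study joins a fold above 2 with p and FDR under 0.05. A fold above 2 with limma adjusted p under 0.05 was reached towards LLC by 4 of the 43 members and 2.4% of all clusters. Towards SLC it was reached by 1 of the 43 members (NDUFA4L2) and 3.07% of all clusters.

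**Figure D1:**
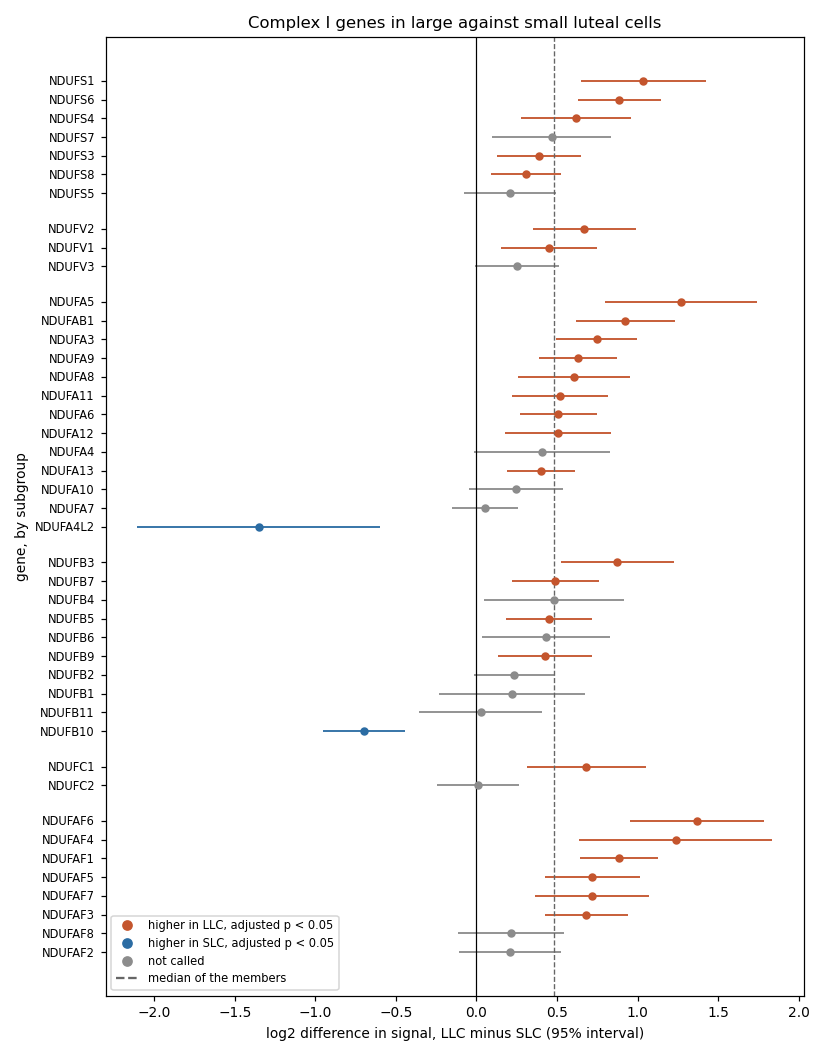
Difference in log2 signal (LLC minus SLC, x axis) for each of the 43 NDUF genes, by subgroup, with the 95% interval of the limma fit. Points of 27 genes are called higher in LLC, 2 higher in SLC (NDUFB10 and NDUFA4L2), and the dashed line marks the median of 0.48.

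The NDUFS and NDUFV genes include the iron-sulfur and flavin subunits of the core and some accessory subunits. Of these 10 genes, 7 were called higher in LLC, beside 9.64% of all clusters, and none was called higher in SLC. NDUFS1, the largest core subunit, carries iron-sulfur clusters of the N module (transcript cluster 12780464). Its signal was 6.69, 6.87, 7.05 and 6.44 in SLC replicates 1 to 4 and 7.91, 7.93, 7.99 and 7.36 in LLC replicates 1 to 4. The groups did not overlap, and the lowest LLC value was that of replicate 4. The log2 difference was 1.03 (SE 0.17, limma adjusted p = 0.00280), a fold of 2.05. NDUFV2, an iron-sulfur protein of the N module, was at 7.95, 8.17, 8.14 and 7.83 in SLC and at 8.53, 8.86, 8.96 and 8.42 in LLC. All LLC arrays again lay above all SLC arrays, with a difference of 0.67 (SE 0.14, adjusted p = 0.00955).

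The other core subunits differed by less, and their calls were close to the threshold. NDUFV1, which binds NADH and the flavin, was at 7.26, 6.97, 7.21 and 7.02 in SLC and at 7.45, 7.77, 7.75 and 7.30 in LLC (difference 0.45, SE 0.13, adjusted p = 0.0389). NDUFS3, a Q module subunit, was at 7.11, 7.20, 7.12 and 7.11 in SLC and at 7.38, 7.65, 7.75 and 7.31 in LLC (difference 0.39, SE 0.12, adjusted p = 0.0431). NDUFS8, which holds iron-sulfur clusters of the Q module, was at 8.08, 8.05, 8.14 and 8.05 in SLC and at 8.53, 8.40, 8.39 and 8.23 in LLC (difference 0.31, SE 0.10, adjusted p = 0.0499). In these 3 called genes all LLC arrays lay above all SLC arrays, which 11.2% of all clusters did. The calls of NDUFV1 and NDUFS8 were lost when any array other than LLC replicate 4 was left out, with differences of 0.39 to 0.50 and 0.26 to 0.33 and adjusted p up to 0.105 and 0.115. The call of NDUFS3 was lost without any 1 of the SLC arrays or without LLC replicate 2 or 3 (differences 0.31 to 0.41, adjusted p up to 0.106). NDUFS7, which carries the last iron-sulfur cluster before ubiquinone, was at 6.07, 5.97, 6.08 and 6.01 in SLC and at 6.32, 6.91, 6.68 and 6.09 in LLC. Its difference of 0.47 was not called (interval 0.10 to 0.84, adjusted p = 0.0775), but was 0.60 with adjusted p = 0.0148 without LLC replicate 4.

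The accessory members of the NDUFS and NDUFV subgroups ranged from a clear call to none. NDUFS6, a zinc-binding subunit of the N module, was at 7.09, 7.29, 7.26 and 7.27 in SLC and at 8.30, 8.05, 8.22 and 7.88 in LLC, which is a difference of 0.89 (SE 0.12, adjusted p = 8.97e-04) or a fold of 1.85. NDUFS4, an N module subunit whose loss causes Leigh syndrome in humans, had a difference of 0.62 (SE 0.15, adjusted p = 0.0180), with 7.36 ± 0.11 (SD, n = 4) in SLC and 7.98 ± 0.31 in LLC. Without SLC replicate 4 its difference was 0.58 with adjusted p = 0.0558. NDUFS5 (7.58 ± 0.14 in SLC, 7.78 ± 0.21 in LLC) and NDUFV3 (6.57 ± 0.07 and 6.82 ± 0.20) overlapped between the cell types and were not called. Their intervals were -0.08 to 0.50 and -0.01 to 0.51.

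**Figure D2:**
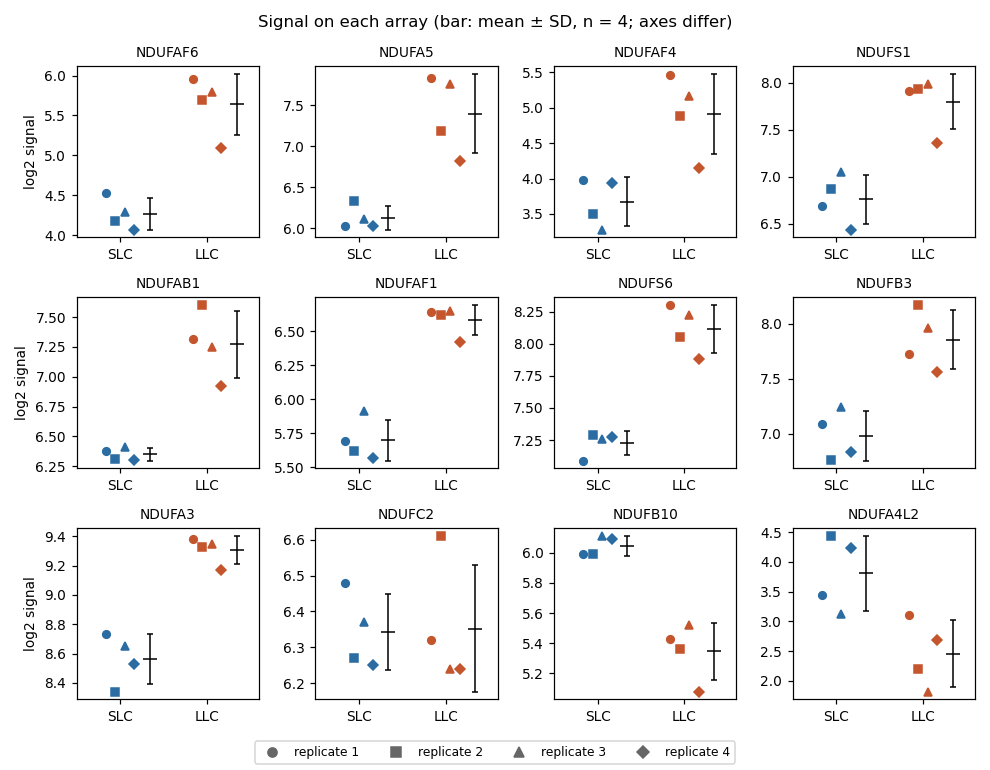
Log2 signal (y axis, scaled per panel) on each array for the 9 genes of largest difference towards LLC and for NDUFC2, NDUFB10 and NDUFA4L2. In 9 panels all 4 LLC arrays lie above the SLC arrays, and LLC replicate 4 is the lowest of the LLC arrays in each of them.

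Of the 13 NDUFA genes, most of which encode accessory subunits, 9 (69.2%) were called higher in LLC and 1 (NDUFA4L2, 7.69%) higher in SLC. Of all clusters, 9.64% and 10.2% were so called. The median difference was 0.51. NDUFA5, a subunit of the Q module (cluster 12853218), had the largest difference towards LLC among the NDUFA genes. It was at 6.03, 6.33, 6.12 and 6.03 in SLC and at 7.83, 7.18, 7.75 and 6.82 in LLC. LLC replicates 1 and 3 were the highest, and the groups did not overlap. The difference was 1.27 (SE 0.21, adjusted p = 0.00275), a fold of 2.41. NDUFAB1, the mitochondrial acyl carrier protein, is both a complex I subunit and a carrier of fatty acid synthesis (cluster 12815307). Its 4 SLC arrays lay close together at 6.38, 6.31, 6.41 and 6.30, and its LLC arrays at 7.32, 7.60, 7.25 and 6.92. The difference was 0.92 (SE 0.14, adjusted p = 0.00160). NDUFA3, of the membrane arm, was at 8.73, 8.34, 8.65 and 8.53 in SLC and at 9.38, 9.33, 9.35 and 9.17 in LLC, a difference of 0.74 (SE 0.11, adjusted p = 0.00161). Its values were more alike in LLC than in SLC, unlike most members.

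The other NDUFA genes called higher in LLC were NDUFA9 (0.63), NDUFA8 (0.61), NDUFA11 (0.52), NDUFA6 (0.51), NDUFA12 (0.51) and NDUFA13 (0.40), given as log2 differences. NDUFA9 lies where the arms meet, NDUFA8 and NDUFA11 lie in the membrane arm, and NDUFA6, which binds the acyl carrier protein, and NDUFA12 in the matrix arm. NDUFA13 is also known as GRIM-19. The calls of NDUFA8 (adjusted p = 0.0213), NDUFA11 (0.0215) and NDUFA12 (0.0373) depended on single arrays. NDUFA8 was not called without SLC replicate 1 (0.61), SLC replicate 4 (0.55) or LLC replicate 2 (0.58). NDUFA11 was not called without SLC replicate 2 (0.45) or 3 (0.51) or LLC replicate 2 (0.47) or 3 (0.45). NDUFA12 was not called without any 1 of the SLC arrays or without LLC replicate 1 or 3 (0.41 to 0.53). NDUFA10 (6.76 ± 0.16 in SLC, 7.01 ± 0.20 in LLC, n = 4) was not called.

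NDUFA7, an N module subunit, was nearly level. It was at 7.76, 7.67, 7.74 and 7.72 in SLC and at 7.72, 7.92, 7.73 and 7.74 in LLC. Of the 8 arrays only LLC replicate 2 stood off, and the difference was 0.06 with an interval of -0.15 to 0.26.

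NDUFA4 and NDUFA4L2 share the NDUF name but are not counted among the structural subunits of complex I. NDUFA4, first purified with complex I, is now taken as a subunit of cytochrome c oxidase. It was at 7.91, 8.29, 7.92 and 7.95 in SLC and at 8.76, 8.26, 8.74 and 7.94 in LLC. LLC replicates 1 and 3 lay above every SLC array and LLC replicates 2 and 4 did not. The difference of 0.41 was not called (adjusted p = 0.178), but was 0.57 with adjusted p = 0.0305 without LLC replicate 4. NDUFA4L2, a paralog of NDUFA4 that is induced by hypoxia in human and mouse cells (cluster 12862214), went the other way. It was at 3.44, 4.43, 3.12 and 4.23 in SLC and at 3.11, 2.20, 1.82 and 2.68 in LLC. The groups were separated by 0.01 between SLC replicate 3 and LLC replicate 1, and LLC replicates 2 and 3 lay below the background limit of 2.28. NDUFA4L2 was 2.55-fold higher in SLC (difference -1.35, SE 0.34, adjusted p = 0.0188), an approximate value given its dim LLC arrays. The call was lost without SLC replicate 2 (-1.14, adjusted p = 0.0529), SLC replicate 4 (-1.21, 0.0592) or LLC replicate 2 (-1.27, 0.0526). NDUFA4L2 is also known as a marker of pericytes. The mean of 7 pericyte and smooth muscle markers lay 1.32, 0.73, 1.82 and 1.14 below the SLC mean in LLC replicates 1 to 4, and their part in this difference was not tested.

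The NDUFB genes, which encode accessory subunits of the distal membrane arm, were divided. Of 10, 4 (40%) were called higher in LLC and 1 (10%) higher in SLC, beside 9.64% and 10.2% of all clusters. The other 5 were not called, and the median difference was 0.43. NDUFB3, of the ND5 module (cluster 12774837), was at 7.09, 6.76, 7.24 and 6.83 in SLC and at 7.73, 8.17, 7.96 and 7.56 in LLC. The difference was 0.88 (SE 0.16, adjusted p = 0.00415) with no overlap. NDUFB7 (0.49), NDUFB5 (0.45) and NDUFB9 (0.42) were the others called higher in LLC, with adjusted p of 0.0179, 0.0245 and 0.0472. NDUFB7 was not called without SLC replicate 2 (0.46) or 4 (0.48). NDUFB5 was not called without SLC replicate 1 (0.43) or 4 (0.40) or without LLC replicate 1 (0.40), 2 (0.44) or 3 (0.43). NDUFB9 was not called without any 1 of the SLC arrays or without LLC replicate 1 or 3 (0.33 to 0.45).

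NDUFB10, of the ND4 module, was the one structural subunit called higher in SLC (cluster 12811567). It was at 5.99, 5.99, 6.11 and 6.09 in SLC and at 5.43, 5.36, 5.52 and 5.08 in LLC. Every LLC array lay below every SLC array, and LLC replicate 4 was the lowest. The difference was -0.70 (SE 0.11, adjusted p = 0.00241), or 1.62-fold higher in SLC. It stayed between -0.76 and -0.61 when each array was left out in turn and was called each time. NDUFB11, of the same module, was at 7.35, 7.23, 7.35 and 7.19 in SLC and at 6.88, 7.19, 7.78 and 7.37 in LLC. Its LLC arrays lay on both sides of the SLC arrays, and the difference was 0.03 with an interval of -0.36 to 0.41.

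The remaining NDUFB genes were not called. NDUFB6 was at 5.71 ± 0.07 (SD, n = 4) in SLC and 6.14 ± 0.40 in LLC, where replicate 4 lay at 5.55 and the others between 6.27 and 6.44. Its difference was 0.43 (adjusted p = 0.130), and 0.63 (adjusted p = 0.00232) without LLC replicate 4. NDUFB4 (1.88 ± 0.26 in SLC, 2.36 ± 0.37 in LLC) had a mean over all arrays below the background limit. It was called without LLC replicate 4 (0.61, adjusted p = 0.0414). NDUFB2 had all LLC arrays above all SLC arrays (7.09 ± 0.13 and 7.32 ± 0.14), and NDUFB1 overlapped (6.34 ± 0.06 and 6.57 ± 0.48).

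The NDUFC pair belongs to the ND2 module of the membrane arm. NDUFC1 was at 4.92, 5.05, 5.0 and 4.85 in SLC and at 5.86, 5.58, 5.95 and 5.16 in LLC, which is a difference of 0.68 (SE 0.16, adjusted p = 0.0162). NDUFC2 was at 6.48, 6.27, 6.37 and 6.25 in SLC and at 6.32, 6.61, 6.24 and 6.24 in LLC. It had the smallest difference of the 43 members, 0.01 with an interval of -0.25 to 0.27, and its groups overlapped.

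By structural module, the share of subunits called higher in LLC ranged widely. All 4 measured members of the ND1 module were called higher in LLC, 7 of 9 in the N module and 4 of 5 in ND5. In the Q module 3 of 4 were so called, in ND2 2 of 5 and in ND4 1 of 6, beside 9.64% of all clusters. The median differences were 0.62 for ND1, 0.51 for N, 0.49 for ND5, 0.43 for Q, 0.32 for ND4 and 0.24 for ND2, beside 0.02 for all clusters. The 6 measured core subunits had a median of 0.46, and 5 were called. The modules hold few genes and their ranges overlap, and differences between modules were not tested. NDUFA2 and NDUFB8 share their clusters with other symbols, so that no value is given for them, and NDUFA1 is not analysed here.

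**Figure D3:**
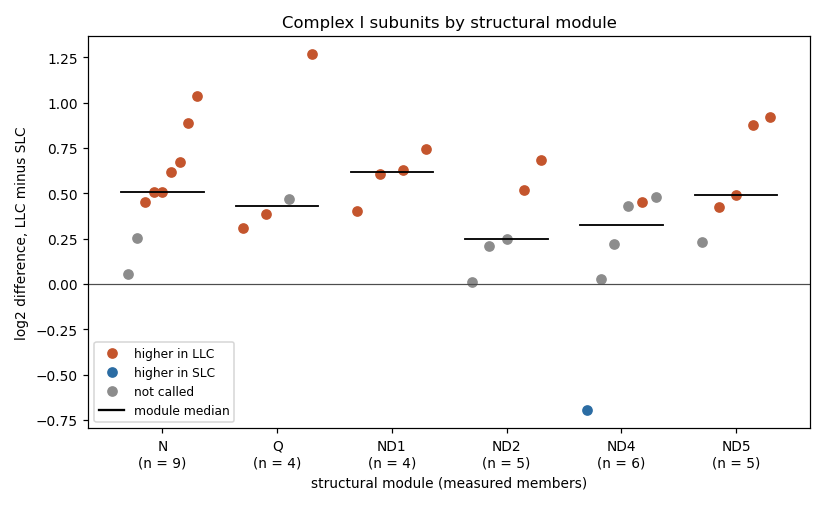
Log2 difference (LLC minus SLC, y axis) of each measured complex I subunit by structural module (x axis), with the module median as a line. In the ND1 module 4 of 4 points are called higher in LLC, and in the ND4 module 1 of 6 is called higher in LLC and NDUFB10 higher in SLC.

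Assembly factors, which build complex I and are not part of the finished enzyme, had the highest median of the subgroups by symbol, 0.72. Of 8 NDUFAF genes, 6 (75%, beside 9.64% of all clusters) were called higher in LLC, and no NDUFAF gene was called higher in SLC. NDUFAF6, which is needed for the ND1 part of the membrane arm in human cells (cluster 12725439), had the largest difference of all members. It was at 4.53, 4.18, 4.29 and 4.07 in SLC and at 5.96, 5.70, 5.80 and 5.09 in LLC. The difference was 1.37 (SE 0.19, adjusted p = 0.00103), a fold of 2.58. NDUFAF4, which acts with NDUFAF3 early in assembly (cluster 12898874), was at 3.98, 3.50, 3.28 and 3.94 in SLC and at 5.46, 4.88, 5.16 and 4.15 in LLC. LLC replicate 4 lay just above the highest SLC array, and the difference was 1.24 (SE 0.27, adjusted p = 0.00992).

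NDUFAF1, a factor for the ND2 part of the membrane arm (cluster 12696956), was more even within each cell type. It was at 5.69, 5.62, 5.91 and 5.57 in SLC and at 6.64, 6.62, 6.65 and 6.42 in LLC, a difference of 0.89 (SE 0.11) with the lowest adjusted p of the members, 6.97e-04. NDUFAF5, which hydroxylates NDUFS7, was at 3.87, 4.17, 4.04 and 3.74 in SLC and at 4.92, 4.48, 4.68 and 4.62 in LLC (difference 0.72, SE 0.13, adjusted p = 0.00430). NDUFAF7, a protein methyltransferase, and NDUFAF3 had differences of 0.72 (SE 0.16, adjusted p = 0.0111) and 0.68 (SE 0.12, adjusted p = 0.00296). In these 6 called genes all LLC arrays lay above all SLC arrays, which 11.2% of all clusters did.

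NDUFAF8, which stabilises NDUFAF5 in human cells, and NDUFAF2, which holds the place of NDUFA12 during assembly, were not called. NDUFAF8 was at 5.12 ± 0.19 (SD, n = 4) in SLC and 5.34 ± 0.25 in LLC, with an interval of -0.11 to 0.54. NDUFAF2 lay near background in both cell types, at 2.12 ± 0.25 and 2.33 ± 0.16. NDUFAF2 and NDUFB4 were the 2 members whose mean over all arrays lay below the background limit of 2.28.

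The NDUFAF median lay above that of the 33 structural subunits, 0.47, but the ranges overlapped widely, from 0.21 to 1.37 for NDUFAF and from -0.70 to 1.27 for the subunits. This difference was not tested. Assembly genes without the NDUF name had a lower median. Of 12 such genes, 4 (33.3%, beside 9.64% of all clusters) were called higher in LLC and none higher in SLC. Their median was 0.08 and their range from -0.18 to 0.58. Those called were TMEM186 (0.58), TIMMDC1 (0.54), ECSIT (0.45) and TMEM70 (0.40), all of which act in assembly of the membrane arm. ACAD9, a partner of NDUFAF1 and ECSIT, differed by -0.18 and was not called (adjusted p = 0.601).

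The arrays differed in how far complex I stood above the SLC level. Averaged over the 43 members, the signal lay 0.53, 0.53, 0.61 and 0.22 above the mean of SLC in LLC replicates 1, 2, 3 and 4. The SLC arrays lay between -0.07 and 0.04. Over all clusters the same mean lay between -0.01 and 0.01 on every array. LLC replicate 4 was thus the array nearest to SLC in these genes, though it lay above the 4 SLC arrays in the mean. It was the lowest LLC array, ties included, in 35 of 43 members (81.4%), beside 27.2% of all clusters. Among the 27 members called higher in LLC it was the lowest in 25 (92.6%). Of all 2353 clusters called higher in LLC it was the lowest in 64.8%. It was the highest LLC array in 0 members, where replicate 1 was the highest in 15, replicate 2 in 12 and replicate 3 in 16. Without LLC replicate 4, 31 members were called higher in LLC and the median difference was 0.59.

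**Figure D4:**
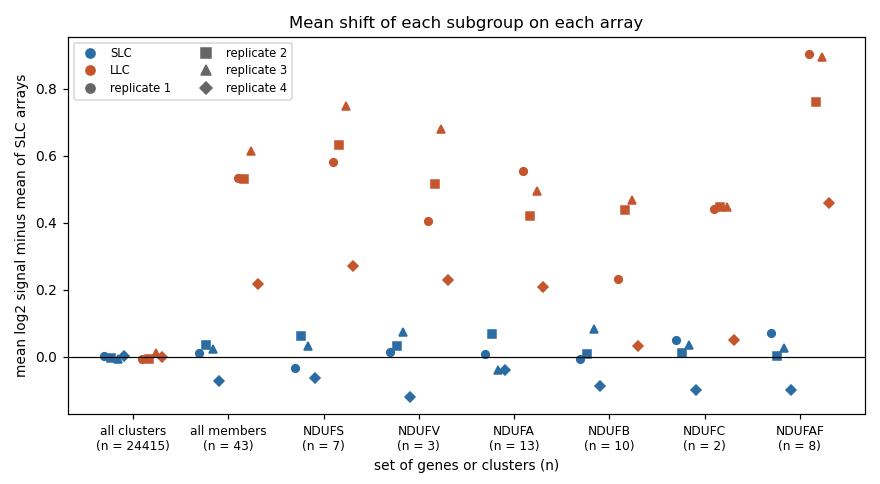
Mean log2 signal of each gene set on each array, relative to the mean of the 4 SLC arrays (y axis), for all clusters, the 43 members and each subgroup (x axis). LLC replicate 4 lies at 0.22 for the members and the other LLC arrays between 0.53 and 0.61, while all clusters stay within 0.01 of zero.

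The lower position of LLC replicate 4 held in each subgroup. Its mean lay 0.46 above SLC for NDUFAF, where the other LLC arrays lay at 0.76 to 0.90, and 0.27 for NDUFS, where they lay at 0.58 to 0.75. For NDUFB it lay at 0.03, within the SLC arrays (-0.09 to 0.08). The same array stood apart in some cell markers. Its large luteal markers lay at 3.36 relative to SLC, the lowest of the LLC arrays, where the others lay between 4.01 and 4.09. Its lymphatic endothelial markers lay at 0.05, where the other LLC arrays lay between -1.82 and -1.46. Its small luteal markers lay at -0.97, where the others lay between -2.10 and -1.30. Its luteal steroidogenic markers lay at 0.305, where the others lay between 0.067 and 0.301. Its macrophage markers were the lowest of the LLC arrays, at -2.45, and its endothelial (-0.84), fibroblast (-1.71) and pericyte (-1.14) markers lay within the range of the others. The part of these markers in its complex I values was not tested. LLC arrays spread more than SLC arrays, by their SD, in 36 of 43 members, or 83.7%, beside 65.7% of all clusters.

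Genes that serve complex I or mitochondria more widely moved partly with the members. Of 12 genes of iron-sulfur cluster assembly, which supplies cofactors to core subunits of the matrix arm, 5 (41.7%) were called higher in LLC. Another 2 (16.7%) were called higher in SLC, and the median was 0.36. Of all clusters, 9.64% were called higher in LLC and 10.2% higher in SLC. Among clusters at least as bright as the lower quartile of the members, these shares were 19.8% and 22.4%. BOLA3 (0.91) and the glutaredoxin gene GLRX5 (0.90) were the leading genes in LLC, and LYRM4, the partner of the cysteine desulfurase (-0.59), and the ferredoxin gene FDX2 (-0.48) were higher in SLC. Of 13 genes of the outer membrane, protein import and matrix, 7 (53.8%) were called higher in LLC and none was called higher in SLC. Their median was 0.56, beside 0.48 for complex I. IDH3A, of the citric acid cycle, was higher by 1.13, and OPA1, a fusion GTPase of the inner membrane, by 1.06. The citrate synthase gene CS differed by 0.65.

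Of 13 regulators of mitochondrial biogenesis, 4 (30.8%, beside 9.64% of all clusters) were called higher in LLC and none higher in SLC. The median was 0.17. Among the 4 was ESRRG, whose means of 0.92 in SLC and 1.6 in LLC lay below the background limit of 2.28. PPARGC1B, a coactivator of mitochondrial genes, had a log2 difference of 1.51 (adjusted p = 9.07e-04). TFB2M, a mitochondrial transcription factor, had a difference of 1.12, and TFAM was also called (0.495, adjusted p = 0.029). The related coactivator gene PPARGC1A was dim and differed by 0.03 (adjusted p = 0.910), and the transcription factor genes NRF1 (-0.09), GABPA (-0.02) and YY1 (0.03) were not called. The mitochondrially encoded subunits ND1 to ND6 are not analysed here, so that the values describe the nuclear-encoded part of complex I.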

How the data were processed

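The authors processed the CEL files with RMA in Transcriptome Analysis Console 4.0, and deposited log2 signals corrected for background, normalized between arrays and summarised per transcript cluster. The RMA version is not given in the sources used here. No further normalization was applied. Symbols came from the platform annotation, and the 43 member symbols equal those of RefSeq (ARS-UCD2.0 table) by gene number.

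Linear models were fitted to all 8 arrays with limma 3.58.1 (lmFit, eBayes; R 4.3.3), as LLC minus SLC with no block, and p-values were adjusted by Benjamini-Hochberg over 24415 clusters. The 4 arrays of each cell type limit the precision, and signals of different clusters do not share one scale. Alternatives were other normalizations, filters, variance models and adjustment families, the replicate number as a block, and leaving out each array.

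The members, gene lists and tests were chosen with earlier results of these data known. All members are named. Values of every array are given for the 10 largest called differences in LLC, those called in SLC, the 3 smallest, the core subunits, NDUFA4, NDUFA4L2 and, chosen after its values were seen, NDUFC1. From the other lists, the 2 called genes of largest difference are named. Further ones (LYRM4, FDX2, ECSIT, TMEM70, ACAD9, CS, ESRRG, TFAM, PPARGC1A, NRF1, GABPA and YY1) were chosen after their values were seen.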

Additional observations from a re-analysis of the deposited data

Results flagged for a closer look

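In 9 of 86 groups of 4 arrays (43 members in 2 cell types), 1 array stood far from the other 3 by Dixon's test, where chance gives about 1 in 20. In LLC these were NDUFS1 in replicate 4 (7.36, the others 7.91 to 7.99), NDUFAF1 in replicate 4 (6.42, the others 6.62 to 6.65), NDUFA7 in replicate 2 (7.92, the others 7.72 to 7.74) and NDUFB2 in replicate 2 (7.54, the others 7.23 to 7.28). In SLC these were NDUFA10 in replicate 4 (6.52, the others 6.83 to 6.86), NDUFA9 in replicate 4 (7.17, the others 7.39 to 7.41), NDUFA4 in replicate 2 (8.29, the others 7.91 to 7.95), NDUFS3 in replicate 2 (7.20, the others 7.11 to 7.12) and NDUFS6 in replicate 1 (7.09, the others 7.26 to 7.29).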

How the results depend on the processing

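The count of members higher in LLC, 27, was 17 in a linear model without moderation and 12 in a test against a fold of 1.2 (treat). It was 25 with each array's median subtracted, 28 with array weights, and 27 with quantile normalization, an intensity trend, the 40th percentile filter or adjustment over clusters with 1 symbol. Without each array in turn it ranged from 18 (without SLC replicate 4) to 31 (without LLC replicate 4). The count higher in SLC, 2, was 1 without moderation and 1 under treat, and ranged from 1 to 2 without each array. Past the fold filter, the 1 member higher in SLC became 0 without moderation and ranged from 0 to 1 without each array, while the 4 higher in LLC ranged from 3 to 5. Of the 29 called members, 16 kept their call in each of 16 settings (treat aside). The medians of the members and subgroups moved by less than the spread between arrays. Without single arrays, the difference of NDUFB11 ranged from -0.13 to 0.17 and that of NDUFC2 from -0.076 to 0.056. NDUFB4 and NDUFAF2 fell under the 40th percentile filter and have no value there. Each member had 1 cluster, so that averaging clusters of a symbol changed nothing. With the replicate number as a block, 22 were higher in LLC and 2 in SLC. The block ended the calls of NDUFA11, NDUFA12, NDUFB9, NDUFS3, NDUFS8 and NDUFV1 (adjusted p from 0.05001 to 0.105) and added that of NDUFB4 (adjusted p = 0.0372). Same-numbered arrays deviated from their group means with r of -0.13, -0.07, 0.17 and 0.01, which does not show a pairing. The labels do not say whether same-numbered samples came from the same cow. Only SLC replicate 3 and LLC replicate 3 (r of 0.17) correlated best with their own number. SLC replicate 4, for example, correlated best with LLC replicate 2 (r of 0.25). The causes of these changes were not tested.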
